A study of Mus musculus with 6 samples.

Results

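Genes of the liver X receptor (LXR) pathway and of cholesterol efflux were followed by RNA-seq in epididymal fat (eWAT), the fat pad next to the epididymis of the mouse. Their rows were taken by gene symbol, from a list chosen with earlier results of these data known. They make up 10 of the 45777 genes in the deposited table. All were measured, and all 10 passed the filter on low counts. They are the receptor genes Nr1h2 and Nr1h3, the transporter genes Abca1, Abcg1 and Abca2, the receptor gene Scarb1, the apolipoprotein genes Apoe and Apoc1, and Mylip and Soat1, which encode enzymes. In GRCm38.p6 their annotated spans are chr7:44549616-44553968 (Nr1h2), chr2:91184061-91202829 (Nr1h3), chr4:53030789-53159988 (Abca1), chr17:31057694-31117984 (Abcg1), chr2:25428599-25448544 (Abca2), chr5:125277087-125341094 (Scarb1), chr7:19696244-19701310 (Apoe), chr7:19689480-19692659 (Apoc1), chr13:45389742-45411940 (Mylip) and chr1:156428108-156474328 (Soat1). By the labels, 3 libraries labelled KO came from Adipoq-Cre; Pak4 flox/flox mice and 3 libraries labelled WT from Pak4 flox/flox mice, all on a C57BL/6 background and all fasted for 24 h. Both groups therefore carried floxed alleles of Pak4, a serine/threonine kinase gene, and the Adipoq promoter drives Cre in adipocytes, so other cells of the pad are not its target. No label says whether the 3 numbered libraries of a group are 3 mice, so a p-value here covers library-to-library spread, which may be technical. The labels used here give no age.

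LXRs are nuclear receptors that bind oxysterols and desmosterol, pair with retinoid X receptors and sit on DNA elements of 2 half-sites separated by 4 bases (DR4). Their targets carry cholesterol out of cells to lipoprotein particles, slow its uptake and drive fatty acid synthesis. White adipocytes hold a large store of free cholesterol, and the macrophages of fat use the same genes when they take up lipid.

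Total counts ran from 62854465 to 72005658 per library. CPM are counts per 1000000 counts after TMM scaling, the measure used below unless another is named. The gene total of Pak4 itself was higher in the libraries labelled KO than in those labelled WT. Pak4 had 12.1, 10.7 and 9.06 CPM in KO 1, 2 and 3, against 5.53, 5.03 and 5.84 CPM in WT 1, 2 and 3. Its log2 fold change was 0.96 ± 0.14 (SE), with an adjusted p of 0.0898 in edgeR's quasi-likelihood test (1.72e-05 to 0.403 over the alternatives). The deposited counts are totals per gene, so the floxed exons could not be looked at apart. The labels could not be checked against the deletion, and each direction below is therefore one between labels. On principal component 1, KO 1 had a score of -1.85, KO 2 and KO 3 scored 40.9 and 53.5, and the libraries labelled WT scored -53.5 to -12.3. The labels name adipocytes as the cell type, but the protocol takes whole tissue. Adipocyte genes such as Adipoq (3851 to 6347 CPM over the 6 libraries) stood beside macrophage genes such as Lyz2 (671 to 1074 CPM), while 9 genes of epididymal epithelium and sperm together reached at most 0.806 CPM in a library.

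RefSeq promoter windows of GRCm38.p6, the assembly of mm10, were at hand for 7 of the 10 genes, and each covers 250 bases before to 50 bases after a transcript start. A DR4 pattern, NGGTNA followed after 4 bases by NGGTNA, was searched on both strands. It matched the window of Abca1 and none of the other 6 genes with a window. Counted by window, this was 1 of 10, against 0.718% of the 32851 windows of all genes. The 250 bases upstream of the Abca1 start (chr4:53159896-53160145, minus strand) are shown because they hold that match, in capitals, at positions -67 to -52 from the start.
Abca1 upstream: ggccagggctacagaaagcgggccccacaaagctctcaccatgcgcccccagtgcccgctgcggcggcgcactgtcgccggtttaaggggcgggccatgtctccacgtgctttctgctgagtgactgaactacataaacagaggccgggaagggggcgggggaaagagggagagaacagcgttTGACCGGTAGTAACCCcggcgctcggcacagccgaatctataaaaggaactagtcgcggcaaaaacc

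The same pattern matched 2 of 12 other LXR target genes with a window, in 2 of their 16 windows. These genes are Fasn, which encodes fatty acid synthase, and Srebf1, which encodes a transcription factor of lipogenesis. The 3 matches are shown side by side to compare their letters, each read on the strand opposite to its gene (the plus strand), with 10 flanking bases and the 2 half-sites in capitals.
Abca1, chr4:53159937-53159972: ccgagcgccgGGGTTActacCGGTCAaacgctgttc
Fasn, chr11:120824747-120824782: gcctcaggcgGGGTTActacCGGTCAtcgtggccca
Srebf1, chr11:60210628-60210663: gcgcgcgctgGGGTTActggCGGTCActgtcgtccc
The elements of Abca1 and Fasn were identical over 16 of 16 bases, and those of Abca1 and Srebf1 over 14 of 16. A match is a description of the letters, and binding was not measured.

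None of the 10 genes passed the threshold of 0.05 between the labels. In edgeR's quasi-likelihood test, with p-values adjusted by Benjamini-Hochberg over 17820 tested genes, 0 were higher and 0 lower, and 0.0168% of all tested genes passed, all 3 of them lower. At an unadjusted p under 0.05 there were 2 of the 10, against 19.4% of all tested genes. Soat1 was the 1 higher gene (9.66% of all tested genes) and Abca2 the 1 lower gene (9.71%). DESeq2 called 0 of the 10, against 6.62% of the genes it gave an adjusted p (2.66% higher and 3.96% lower). The groups did not overlap for 2 of the 10, Apoe and Abca2, against 26.2% of all tested genes. Both shares lie near those of all genes. Of the 10, 6 lay above 0 and 4 below, and their median log2 fold change was 0.10, beside 0.02 over all tested genes. Fewer cells of a type and less RNA per cell cannot be told apart in such tissue.

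Levels are compared between genes only per length, as the authors' deposited TPM. Apoe, whose protein carries cholesterol on lipoproteins, stood far above the rest, between 5176 and 9340 TPM. Apoc1, encoding a small apolipoprotein from the same gene cluster, ranged from 334 to 766 TPM, and Nr1h3, encoding LXR alpha, from 108 to 160.1 TPM. Abca1 (52.8 to 78.0 TPM) and Nr1h2 (53.0 to 65.8 TPM), encoding LXR beta, overlapped in their ranges. So did Abcg1 (27.5 to 38.6 TPM) and Scarb1 (24.0 to 33.4 TPM), and Abca2 (13.8 to 18.5 TPM) and Mylip (12.6 to 20.5 TPM). Soat1 was lowest at 4.80 to 8.80 TPM. The other neighbours in this order did not overlap, and the deposited FPKM gave the same order.

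**Figure D1:**
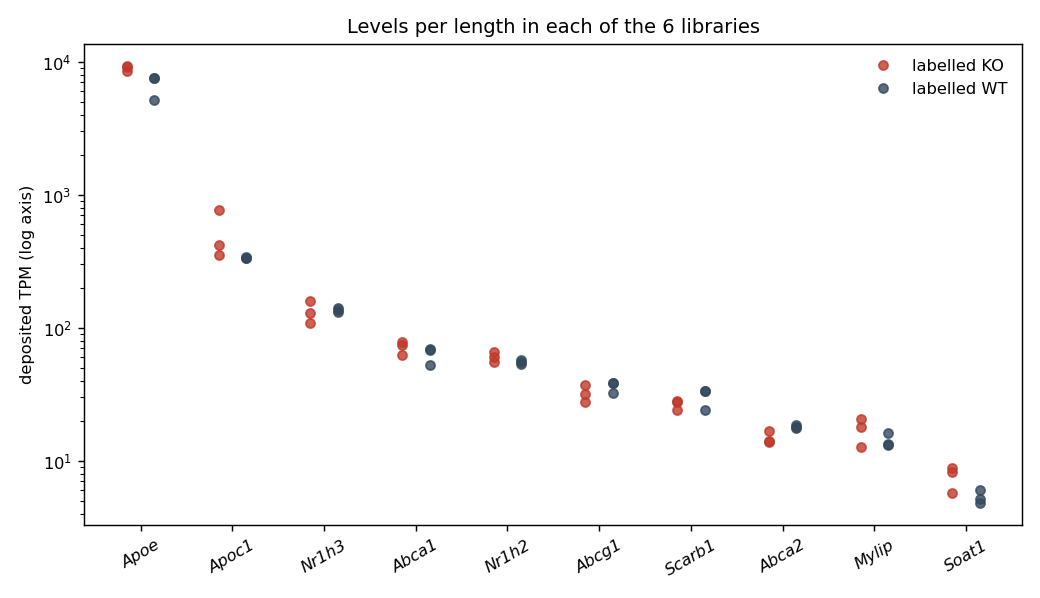
Deposited TPM of the 10 genes in each of the 6 libraries on a log axis, ordered by their mean, with libraries labelled KO to the left of those labelled WT. Apoe lies at 5176 TPM or more in every library, and Soat1 at 8.80 TPM or less.

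The 2 receptor genes showed small differences whose sign depended on single libraries. Nr1h2, the form found in most tissues, had 71.1, 62.5 and 60.0 CPM in KO 1, 2 and 3, against 61.8, 61.3 and 60.8 CPM in WT 1, 2 and 3. The libraries overlapped, and KO 1 was the highest. Its log2 fold change of 0.07 ± 0.09 had a 95% interval of -0.13 to 0.28 in edgeR's fit, and without KO 1 it stood at -0.0025. Nr1h3, the form enriched in liver, fat and macrophages, had 149, 96.6 and 122 CPM in the libraries labelled KO, against 135, 132 and 127 CPM in those labelled WT. The libraries labelled KO lay on both sides of those labelled WT, with KO 1 above and the other two below. The log2 fold change was -0.10 ± 0.15 (interval -0.45 to 0.25), and it stood at 0.046 without KO 2 and at 0.014 with scaling by library size alone. The ratio of Nr1h3 to Nr1h2 TPM, into which no scaling factor enters, was 2.43, 1.80 and 2.34 in the libraries labelled KO, against 2.54, 2.49 and 2.39 in those labelled WT. KO 2 and KO 3 were below every library labelled WT, and KO 1 lay between WT 3 and WT 2.

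The efflux transporters Abca1 and Abcg1, the 2 LXR targets that hand cholesterol to lipid-poor apolipoprotein A-I and to mature HDL, stood on opposite sides of 0. Abca1 had 343, 386 and 428 CPM in the libraries labelled KO, against 379.8, 308 and 370.4 CPM in those labelled WT. KO 2 and KO 3 were above every library labelled WT, while KO 1 was below 2 of them. The log2 fold change was 0.13 ± 0.13 (interval -0.18 to 0.44; adjusted p 0.614 in edgeR). Abcg1 had 114, 93.4 and 85.6 CPM in the libraries labelled KO, against 123, 107 and 118 CPM in those labelled WT. KO 2 and KO 3 were below every library labelled WT, and KO 1 lay among them. The log2 fold change of Abcg1 was -0.25 ± 0.12 (interval -0.54 to 0.04; adjusted p 0.308 in edgeR). The ratio of Abca1 to Abcg1 counts was 3.01, 4.14 and 4.997 in the libraries labelled KO, against 3.09, 2.88 and 3.14 in those labelled WT. KO 2 and KO 3 therefore had the highest ratios, and KO 1 fell among the libraries labelled WT.

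Abca2 and Scarb1 were on the lower side in the libraries labelled KO. Abca2, whose protein moves sterols and other lipids in endosomes and lysosomes, had 75.0, 58.7 and 59.9 CPM in the libraries labelled KO, against 78.2, 83.9 and 79.6 CPM in those labelled WT. The groups did not overlap, with KO 1 nearest to the libraries labelled WT. Abca2 had a log2 fold change of -0.32 ± 0.11 (interval -0.58 to -0.06), and the adjusted p of 0.201 in edgeR did not pass. Without KO 1 it passed, at -0.44 with an adjusted p of 0.0392 in edgeR (0.0392 to 0.481 over the alternatives). Scarb1, encoding the HDL receptor SR-BI that moves cholesterol in both directions, had 36.0, 35.1 and 31.7 CPM in the libraries labelled KO, against 44.9, 34.0 and 43.3 CPM in those labelled WT. WT 2 lay among the libraries labelled KO, so the groups overlapped. This gave a log2 fold change of -0.25 ± 0.12 (interval -0.53 to 0.03).

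**Figure D2:**
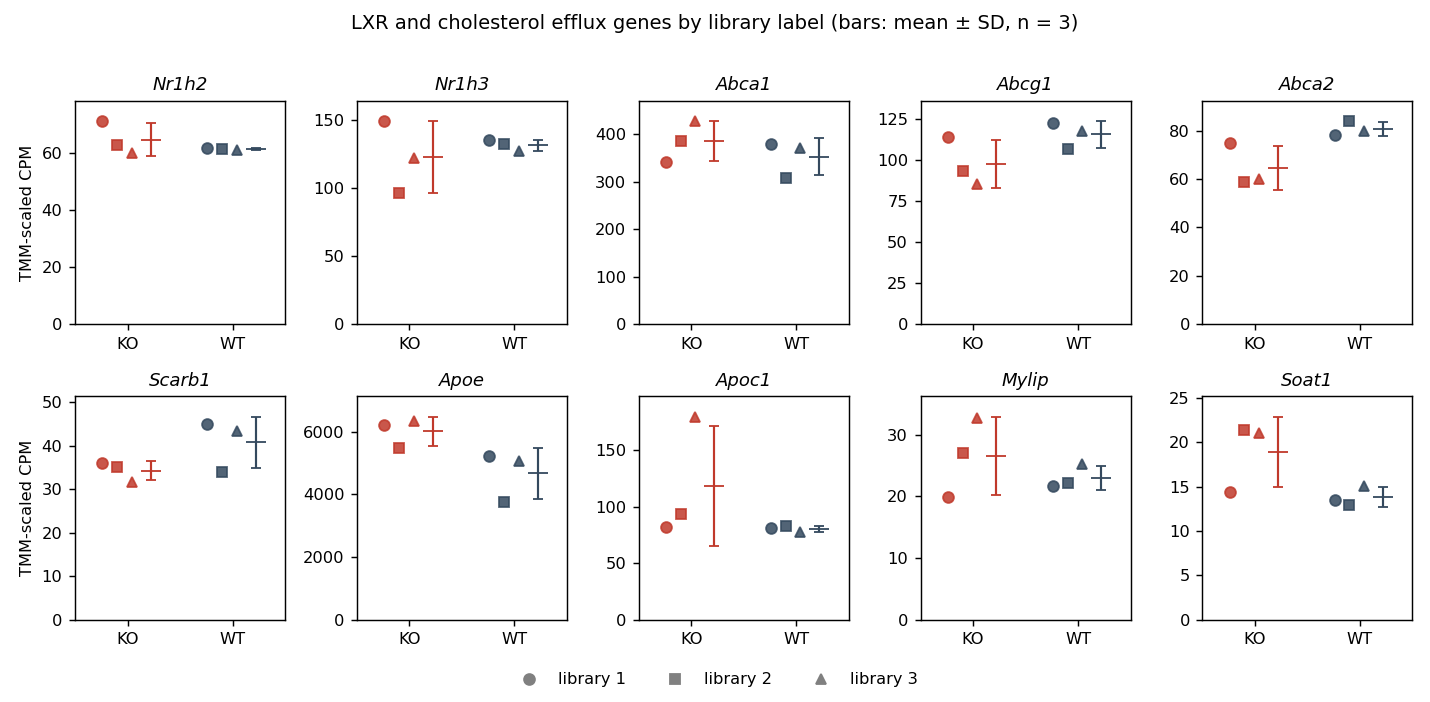
TMM-scaled CPM of the 10 genes, libraries labelled KO to the left of those labelled WT in each panel, 1 marker shape per library number and bars for mean ± SD (n = 3). The groups are separate for Apoe (KO higher) and Abca2 (KO lower) and overlap for the other 8 genes, and KO 1 (circle) lies within the WT range for 5 of the 10.

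Apoe and Apoc1, neighbours on chromosome 7 with 3584 bases between them, were on the higher side. Apoe had 6213, 5486 and 6353 CPM in the libraries labelled KO, against 5226, 3746 and 5067 CPM in those labelled WT. All 3 libraries labelled KO were above all 3 labelled WT, and WT 2 was the lowest. Apoe took 0.626% ± 0.041 of the counts in the libraries labelled KO and 0.450% ± 0.088 in those labelled WT (SD, n = 3 each). Its log2 fold change was 0.36 ± 0.18 (interval -0.05 to 0.77), with an adjusted p of 0.294 in edgeR. Apoc1 had 82.3, 93.8 and 179.7 CPM in the libraries labelled KO, against 81.2, 82.9 and 77.6 CPM in those labelled WT. KO 3 was far above the other 5 libraries, and KO 1 lay within the range of the libraries labelled WT. For Apoc1 the log2 fold change was 0.56 ± 0.28 (interval -0.11 to 1.23). In deposited TPM the groups of Apoc1 did not overlap (354, 423 and 766 TPM labelled KO, against 339, 334 and 337 TPM labelled WT), which made 3 of the 10 genes separate, against 25.6% of all tested genes in that unit.

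Mylip and Soat1 were also on the higher side. Mylip, an LXR target also called Idol, encodes a ubiquitin ligase that marks lipoprotein receptors for breakdown. It had 19.96, 27.0 and 32.6 CPM in the libraries labelled KO, against 21.7, 22.2 and 25.2 CPM in those labelled WT. KO 1 was the lowest of the 6 libraries and KO 2 and KO 3 were the highest. The log2 fold change was 0.21 ± 0.17 (interval -0.20 to 0.61). Soat1, the enzyme that esterifies cholesterol for storage, had 14.4, 21.4 and 21.1 CPM in the libraries labelled KO, against 13.5, 13.0 and 15.1 CPM in those labelled WT. KO 2 and KO 3 were above every library labelled WT, and KO 1 lay among them. The log2 fold change was 0.45 ± 0.16 (interval 0.08 to 0.83), with an adjusted p of 0.205 in edgeR. With KO 1 left out it passed, at 0.61 with an adjusted p of 0.0344 in edgeR (0.0344 to 0.497 over the alternatives).

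KO 1 lay within the range of the libraries labelled WT for 5 of the 10 genes, against 47.3% of all tested genes. KO 2 did so for 1 of the 10 (34.1% of all tested genes) and KO 3 for 0 (30.7%). Without KO 1, edgeR called 2 of the 10 genes, against 5.57% of the 18237 genes then tested. Soat1 was higher (2.08% of those genes) and Abca2 lower (3.49%).

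**Figure D3:**
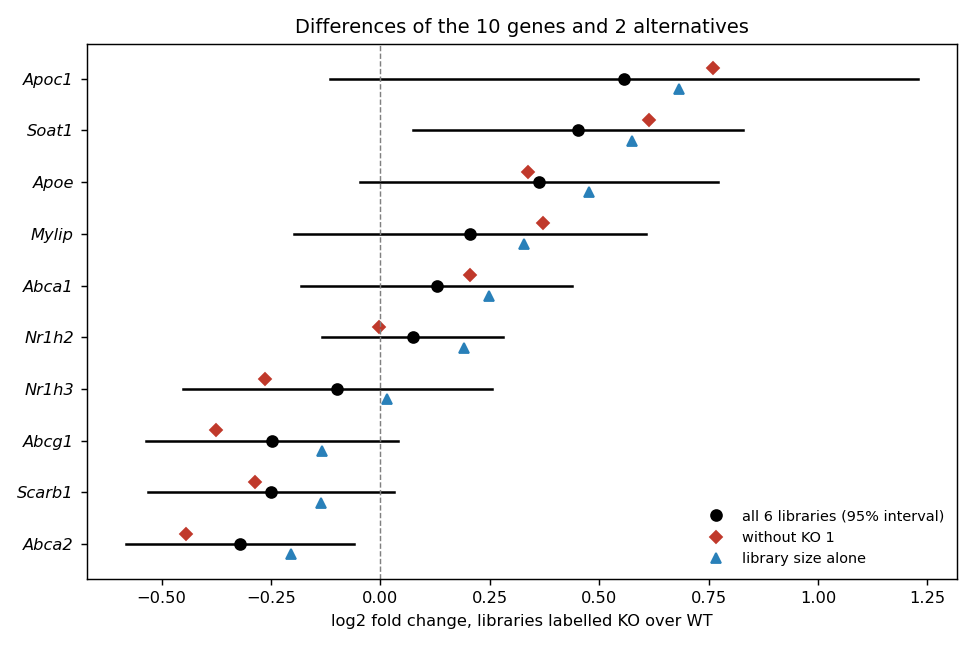
Log2 fold changes of the 10 genes, libraries labelled KO over those labelled WT, with 95% intervals from edgeR's fit to all 6 libraries (black), and the values without KO 1 (red diamonds) and with library size alone (blue triangles). The intervals of Soat1 and Abca2 leave out 0, and the values of Nr1h2 and Nr1h3 cross 0 between settings.

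Other LXR target genes went both ways as well. Of 17 tested, 0 passed in edgeR, 9 were above 0 and 8 below, with a median log2 fold change of 0.08 (-0.07 without KO 1). Fasn, with the same element as Abca1, had 751, 587 and 398 CPM in the libraries labelled KO, against 1702, 2282 and 3009.5 CPM in those labelled WT. The groups were far apart, and the log2 fold change was -2.01 ± 0.29 with an adjusted p of 0.0877 in edgeR. Over the alternatives its adjusted p ranged from 3.07e-11 (DESeq2) to 0.403, and it passed in edgeR without KO 1 (0.0256). Srebf1 had 266, 183 and 173 CPM in the libraries labelled KO, against 170.0, 185 and 206 CPM in those labelled WT. Its groups overlapped, with KO 1 highest, at 0.15 ± 0.18, and without KO 1 it stood at -0.07. The 3 genes with a DR4 match thus gave values of 0.13, -2.01 and 0.15. The Srebf1 match lay in 1 of the 3 windows of that gene, while its value comes from a gene total over all starts. Scd2, a fatty acid desaturase gene, stood at -0.90 ± 0.20, and Lpl, encoding lipoprotein lipase, at -0.57 ± 0.17, both with groups that did not overlap and both past the threshold in DESeq2 alone. Apoc4, from the Apoe cluster, stood at -1.08 ± 0.54, with 2.18, 0.402 and 0.913 CPM labelled KO against 2.15, 2.91 and 2.32 CPM labelled WT, and passed in edgeR without KO 1 (adjusted p 0.0453; 0.0453 to 0.594 over the alternatives).

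Partners and cofactors of the receptors showed small differences. Of 14 tested genes 0 passed in edgeR, and the median was -0.02 (0.10 with scaling by library size alone). Rxrg, a retinoid X receptor gene, stood at 0.39 ± 0.14, and Tbl1x, a corepressor subunit gene, at -0.29 ± 0.11, each with groups that did not overlap. The coactivator gene Ncoa2 stood at -0.16 ± 0.09.

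Among enzymes that make or clear LXR ligands, 0 of 6 tested genes passed in edgeR (median 0.33). Of the 6, 4 were above 0 and 2 below. The gene farthest from 0 was 1 of the 2 below and is not reported here. Hsd3b7, which acts on oxysterols in bile acid synthesis, stood at 0.43 ± 0.14, and Cyp27a1, the sterol 27-hydroxylase that makes an oxysterol, at 0.22 ± 0.09, both with groups that did not overlap. Cyp46a1 stood at 0.66 ± 0.30 and Cyp7b1, an oxysterol hydroxylase gene, at 0.75 ± 0.36. In a library they had at most 1.26 CPM for Cyp46a1 and 1.03 CPM for Cyp7b1.

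Genes that move cholesterol between lysosome, endoplasmic reticulum and plasma membrane had a median of -0.001 (0.11 with scaling by library size alone) over 14 tested, with 0 past the threshold in edgeR. Nceh1, which encodes a hydrolase of cholesterol esters and so acts opposite to Soat1, had 16.01, 28.5 and 25.3 CPM in the libraries labelled KO, against 13.3, 16.2 and 15.7 CPM in those labelled WT. KO 2 and KO 3 were above every library labelled WT, and KO 1 lay among them. This gave 0.63 ± 0.21, and it passed in edgeR without KO 1 (adjusted p 0.0264, with 0.0264 to 0.466 over the alternatives). Cav1, encoding the caveolar coat protein caveolin, stood at -0.39 ± 0.15, Stard3, a late endosomal sterol carrier gene, at 0.23 ± 0.09, and Gramd1c, of the Aster sterol carriers, at 0.73 ± 0.28.

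The lipoprotein receptors, among which Vldlr is a target of Mylip's product, had a median of -0.17 over 9 tested genes, with 0 past the threshold in edgeR. Vldlr had 97.5, 77.2 and 85.9 CPM in the libraries labelled KO, against 111, 118 and 108 CPM in those labelled WT. The groups did not overlap, and the log2 fold change of Vldlr was -0.37 ± 0.11. Msr1, a scavenger receptor gene of macrophages, stood at 0.66 ± 0.10 and Sorl1, a sorting receptor gene, at -0.56 ± 0.11, both with groups that did not overlap. Msr1 and Vldlr passed in edgeR without KO 1 (adjusted p 0.024 and 0.0454) and in DESeq2, and Sorl1 in DESeq2. The highest adjusted p over the alternatives was 0.403 for Msr1 and 0.427 for Vldlr.

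Of 8 tested genes for acceptors and remodelling enzymes of HDL, 0 passed in edgeR (median -0.24). Apoa1, the main HDL protein gene, had at most 0.803 CPM, at 1.12 ± 0.35, and Lipg, encoding endothelial lipase, at most 0.552 CPM, at -1.02 ± 0.39. Pcyox1, an oxidase gene whose product travels on lipoproteins, stood at -0.41 ± 0.15 and Lcat, which esterifies HDL cholesterol, at -0.41 ± 0.31. Other ABCA and ABCG transporter genes had a median of 0.21 over 14 tested, again with 0 past the threshold in edgeR. Abca4, known as a retinoid transporter gene of the eye, had 8.35, 11.3 and 12.0 CPM in the libraries labelled KO, against 6.84, 5.22 and 6.28 CPM in those labelled WT (0.79 ± 0.17), and passed with DESeq2 (0.00517) and in edgeR without KO 1 (0.0296). The highest adjusted p over the alternatives was 0.421. Abca3, known as a phospholipid transporter gene of the lung, stood at -0.43 ± 0.13 and passed in edgeR without KO 1 (adjusted p 0.0346; up to 0.45 over the alternatives). Abca8b stood at -0.31 ± 0.09 and Abca6 at 0.49 ± 0.22.

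**Figure D4:**
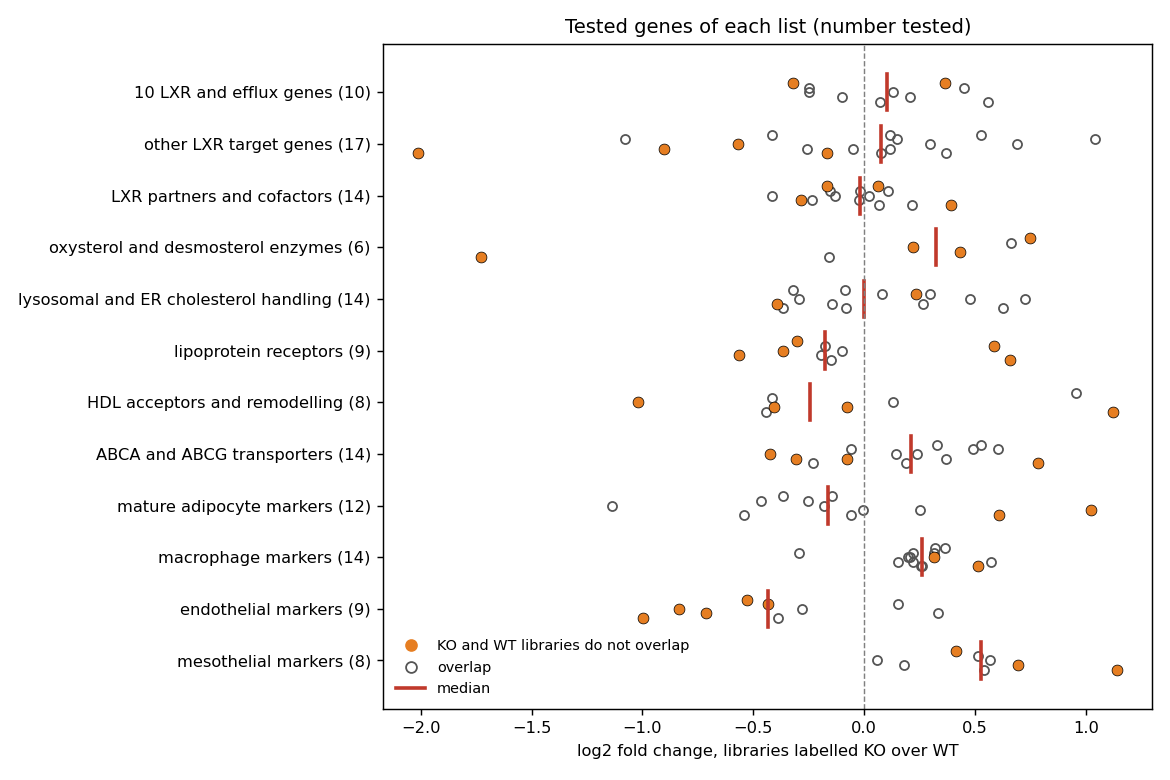
Log2 fold changes (libraries labelled KO over WT) of the tested genes of each list, 1 point per gene, filled where the KO and WT libraries do not overlap, with the median as a red line. The 10 LXR and efflux genes lie between -0.32 and 0.56, and Fasn is the lowest point of the other LXR targets.

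Macrophages of fat also express Apoe, Abca1, Abcg1, Nr1h3 and Soat1, and their markers stood mostly above 0. Of 14 macrophage markers 13 were above and 1 below, beside 9287 of all 17820 tested genes above 0. Of the 14 markers 0 passed the threshold in edgeR, and their median was 0.26 on the log2 scale. Their summed level was 2699 to 3576 CPM in the libraries labelled KO, against 2698 to 3301 CPM in those labelled WT. KO 1 had the lowest sum of those labelled KO. Markers of lipid-laden macrophages went both ways. Of 10 tested, 6 were above 0 and 4 below, with a median of 0.24 and 0 past the threshold in edgeR. The groups did not overlap for 2 higher and 2 lower genes, against 13.7% (higher) and 12.5% (lower) of all tested genes. Summed, the 10 markers had 9279 to 11789 CPM in the libraries labelled KO, against 13916 to 14780 CPM in those labelled WT. Every library labelled KO was thus lower in this sum. Most of it was the adipocyte-expressed Lpl, with 7900 to 10253 CPM labelled KO against 12717 to 13437 CPM labelled WT. The sum without Lpl was not compared. Trem2, a receptor gene of lipid-laden macrophages, was 1 of the 2 higher genes. It had 18.7, 31.8 and 33.4 CPM in the libraries labelled KO, against 11.6, 13.3 and 16.6 CPM in those labelled WT. Lpl was 1 of the 2 lower genes, and the log2 fold changes of the 10 markers ran from -0.93 to 2.75. The adipocyte markers summed to 74389 to 78980.4 CPM in the libraries labelled KO, against 73267 to 79807 CPM in those labelled WT, and their median over 12 was -0.16. Of the 12, 3 were above 0 and 9 below, with 0 past the threshold in edgeR. The groups did not overlap for 2 higher and 0 lower genes. Cfd, 1 of these 2, had 13296, 15278 and 18439 CPM labelled KO against 11373, 4612 and 7136 CPM labelled WT. The sum without Cfd was not compared, so the near-equal sums do not show that the markers kept their levels. Endothelial markers had a median of -0.43 over 9 (283.8 to 309.97 CPM summed in the libraries labelled KO, against 349 to 449.9 CPM in those labelled WT) and mesothelial markers one of 0.53 over 8 (863 to 1086 CPM against 541 to 884 CPM). The part of these cells in the values of the 10 genes was not tested.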

How the data were processed

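Whole epididymal fat was kept in RNAlater, extracted with Trizol and made into stranded mRNA libraries, per the labels' protocols. The submitters' processing notes name HISAT2 2.1.0, Bowtie2 2.3.4.1, StringTie 2.1.3b and build mm10, without roles. The strand setting and multi-mapping rule are not given in the sources used here. The 10 genes shared few bases with genes that had counts (Nr1h3 shares 18 with Acp2). The authors deposited 1 table with whole read counts per gene, which entered every test, and with FPKM and TPM per the file headers, used for levels per length. Coordinates are RefSeq's (GRCm38.p6).

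The low-count filter was filterByExpr with a count of 10 and a total of 15 as minimums. Counts were scaled by TMM and fitted on the label alone in edgeR 4.0.16 (R 4.3.3; robust glmQLFit, glmQLFTest, two-sided, Benjamini-Hochberg, threshold 0.05), after a check on simulated counts. Errors are SE from the F statistic. DESeq2 1.42.0, limma 3.58.1 and the other alternatives are given in the closing section. The 10 genes had 826 to 473293 counts in a library, so none was near the filter's minimum count of 10.

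The 10 genes and the lists were chosen with earlier results of these data known. Of each list, up to 4 genes with the smallest p are named, with any whose groups do not overlap at a log2 fold change of at least 0.58 in size. Srebf1, Star and the markers named in the text were named after their values were seen. Of marker lists not described in the text, fibroblasts and progenitors (9 tested, median 0.12), T, NK and B cells (10, 0.42), neutrophils (4, 0.40) and steroidogenic cells (4, 0.05) had 0 genes past the threshold. Some genes that this rule names are not reported here.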

Additional observations from a re-analysis of the deposited data

How the results depend on the processing

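Over 12 alternatives, 115 of 120 values of the 10 genes kept their sign and their side of the threshold, 2 passed it and 3 changed sign. Soat1 (0.61) and Abca2 (-0.44) passed without KO 1, Nr1h2 stood at -0.0025 without KO 1 (-0.0025 to 0.12 with 1 library left out), and Nr1h3 at 0.046 without KO 2 (-0.26 to 0.046 with 1 library left out) and at 0.014 with library size alone, a scaling that moved the median of all genes by 0.12. The number of the 10 genes called was 0 to 2 with 1 library left out, and 0 with every other alternative. Over all genes, the count of 3 was 1036 with DESeq2 (416 higher and 620 lower), 5 with limma voom (1 higher and 4 lower), 4 with library size alone (1 higher and 3 lower, against 0 and 3), 1 with the replicate block, and 1 to 1016 with 1 library left out. It was 1016 without KO 1, 2 without KO 2, 5 without WT 1, and 1 without KO 3, WT 2 or WT 3. The cause was not tested. With library size alone the medians of the receptor partners and of the lysosomal and ER genes stood at 0.10 and 0.11, so their sign changed.

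Equal replicate numbers share only a number: the deviations of same-numbered libraries correlated at -0.17, -0.02 and 0.05, and 1 of 6 libraries correlated best with its own number. The replicate block called 0 of the 10 genes. With 3 libraries a group, an exact permutation test cannot go below a two-sided p of 0.1.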

Other observations

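Star, which encodes the carrier that brings cholesterol into mitochondria for steroid synthesis, had 7.06, 8.51 and 8.86 CPM in the libraries labelled KO, against 4.78, 2.63 and 4.84 CPM in those labelled WT. The groups did not overlap, and the log2 fold change was 1.00 ± 0.24 with an adjusted p of 0.147 in edgeR (0.00647 with DESeq2 to 0.421 over the alternatives). Apoe ranked 12th among all genes by count in each library labelled KO, and 16th, 25th and 15th in WT 1, 2 and 3. The ratio of Apoe to Apoc1 counts was 75.5, 58.5 and 35.4 in KO 1, 2 and 3, against 64.3, 45.2 and 65.3 in WT 1, 2 and 3, so the neighbouring genes did not keep one ratio across libraries.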
